A study of Mus musculus with 13 samples.

Results

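TREM2 is a receptor on the surface of microglia, the resident macrophages of the brain, that binds lipids, lipoproteins and cell debris. It has no signalling tail of its own and pairs with the adaptor TYROBP, also called DAP12, whose ITAM motif is phosphorylated by Src family kinases and then docks the kinase SYK. SYK activates the phospholipase PLCG2 and the exchange factor VAV1, the adaptor HCST (DAP10) adds PI3-kinase, and the phosphatases INPP5D (SHIP1) and PTPN6 (SHP-1) act against the signal. These 8 genes, Trem2, Tyrobp, Hcst, Syk, Plcg2, Inpp5d, Vav1 and Ptpn6, were chosen by name out of 55401 gene identifiers and followed in bulk RNA-seq of the mouse brain. In demyelinated brain the receptor is known for its part in the microglial response to myelin debris.

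The 13 libraries came from male C57BL/6J mice that were 6 to 8 weeks old by the labels and carried no engineered allele. Cuprizone, a copper chelator given in chow, kills oligodendrocytes and strips myelin. The 5 control mice (CTL) ate control chow for 6 weeks. The 4 cuprizone mice (CPZ) ate 0.3% cuprizone for 4 weeks. The 4 recovery mice (RCV) ate the same diet for 4 weeks and then control chow for 2 weeks. Each library was made from 1 snap-frozen hemisphere, so the values average over all cells and regions of it. CPZ mice were collected at week 4 and both other groups at week 6, so the diet and the week of collection cannot be told apart in CPZ against CTL. RCV samples are titled "Veh" but have Recovery as treatment, and the treatment was followed. The treatment text of the labels gives 4, 3 and 3 mice for control, cuprizone and recovery, fewer than the libraries. Each library was taken as 1 mouse.

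Libraries held 4605100 to 8197289 assigned counts. Of these, 3.76% to 5.07% were mitochondrial. The rRNA share was 3.10% to 5.32% in RCV, against 0.548% to 4.23% in CTL and 1.21% to 4.23% in CPZ. All 13 markers of neurons, astrocytes and oligodendrocytes were counted well enough to be tested. The 4 oligodendrocyte markers fell in CPZ against CTL, from a summed 3237 to 5989 counts per 1000000 (CPM) in CTL to 1242 to 2265 in CPZ, and stood at 4245 to 7173 in RCV. The 4 astrocyte markers were all called higher in CPZ against CTL, with summed levels of 765 to 931 CPM in CTL, 1575 to 1930 in CPZ and 1183 to 1500 in RCV, and their part in the member changes was not tested.

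All 8 genes are protein coding, and their positions below are on GRCm38 in GENCODE M21. Trem2 lies on chromosome 17 from 48346401 to 48354147 on the plus strand. Tyrobp lies on chromosome 7 from 30413760 to 30417585 on the plus strand, and Hcst follows it from 30417712 to 30419854 on the minus strand with 126 bases between them. Syk is on chromosome 13 (52583173 to 52648792, plus), Plcg2 on chromosome 8 (117498291 to 117635142, plus) and Inpp5d on chromosome 1 (87620312 to 87720507, plus). Vav1 is on chromosome 17 (57279100 to 57328031, plus) and Ptpn6 on chromosome 6 (124720707 to 124738714, minus). No exon of Tyrobp and Hcst is shared. Exons of Ptpn6 share 195 bases with the antisense gene Gm20531, and an intron of Plcg2 holds the microRNA gene Gm27361; both had 0 counts in every library.

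The sequences before the starts of these genes were searched for short motifs, with PU.1 sites among them. PU.1, encoded by Spi1, is a well-known activator of myeloid genes. RefSeq (GRCm38.p6) gave a window for 7 of the 8 members, with 2 start sites for Syk and no entry for Tyrobp. Each window holds the 250 bases before the start, 5′ to 3′ on the strand of the gene. Capitals mark matches on either strand to GAGGAA, the core of a PU.1 site, or GGAAGT, a core of ETS factors in general; the 2 motifs overlap where GAGGAA runs on into GT. The 3 windows below hold a PU.1 core, and the fourth, of Hcst, holds ETS cores only.
Trem2 (chr17:48346151-48346400, plus): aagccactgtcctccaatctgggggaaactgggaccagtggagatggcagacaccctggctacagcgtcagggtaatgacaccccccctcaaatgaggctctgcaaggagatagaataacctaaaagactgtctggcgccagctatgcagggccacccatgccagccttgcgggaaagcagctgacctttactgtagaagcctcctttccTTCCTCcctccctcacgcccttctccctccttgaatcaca
Inpp5d (chr1:87620062-87620311, plus): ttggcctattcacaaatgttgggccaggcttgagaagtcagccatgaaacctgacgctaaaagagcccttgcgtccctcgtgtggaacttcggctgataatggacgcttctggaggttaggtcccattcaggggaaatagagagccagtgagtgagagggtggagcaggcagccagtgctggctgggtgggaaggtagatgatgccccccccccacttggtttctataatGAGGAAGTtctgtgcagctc
Vav1 (chr17:57278850-57279099, plus): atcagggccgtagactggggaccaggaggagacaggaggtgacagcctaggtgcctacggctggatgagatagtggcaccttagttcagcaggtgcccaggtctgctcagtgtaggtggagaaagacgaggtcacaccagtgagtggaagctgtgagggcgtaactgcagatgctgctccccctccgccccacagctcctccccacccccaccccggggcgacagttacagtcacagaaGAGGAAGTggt
Hcst (chr7:30419855-30420104, minus): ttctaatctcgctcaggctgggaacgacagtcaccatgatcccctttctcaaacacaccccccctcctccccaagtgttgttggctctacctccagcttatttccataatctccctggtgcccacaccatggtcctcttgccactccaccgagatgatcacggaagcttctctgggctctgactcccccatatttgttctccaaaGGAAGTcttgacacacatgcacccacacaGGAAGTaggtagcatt
The PU.1 core began 40 bases before the start in Trem2, on the opposite strand. It began 20 bases before the start in Inpp5d and 11 bases before it in Vav1, both on the strand of the gene and both running on into an ETS core. The downstream window of Syk held a PU.1 core 9 bases before its start, and the upstream window of Syk and that of Plcg2 held neither motif. Hcst had ETS cores 45 and 16 bases before its start, and Ptpn6 had them 101 and 190 bases before its start. Short motifs are common: 23.3% of all 32851 RefSeq windows of this length held the PU.1 core and 19.7% held the ETS core. These matches describe letters, not occupied sites. Spi1 itself rose by 2.42 ± 0.29 (log2 fold change ± SE) in CPZ against CTL (edgeR adjusted p = 3.4e-05).

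Every member that could be tested was higher in CPZ than in CTL. Tyrobp rose 11.0-fold, Trem2 8.21-fold and Ptpn6 7.16-fold, while Vav1 rose 5.14-fold and Inpp5d, Plcg2 and Syk rose 2.74-fold to 3.56-fold. All 7 tested members passed edgeR's quasi-likelihood test at a Benjamini-Hochberg adjusted p of 0.05 over 14985 genes, and DESeq2 and limma-voom called all 7 too. The background was 7.66% of all genes higher and 2.5% lower. The median of the 7 was 2.36 on the log2 scale, against -0.02 over all tested genes. In each of the 7 every CPZ library stood above every CTL library, which held for 8.25% of all genes.

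Of the receptor itself, the Trem2 level was 8.56, 10.1, 8.15, 8.41 and 8.62 CPM in the 5 CTL mice. It was 96.1, 90.7, 43.6 and 57.7 CPM in the 4 CPZ mice and 18.8, 23.2, 13.7 and 29.7 CPM in the 4 RCV mice. The 3 groups did not overlap, and the CTL mice lay close together while CPZ and RCV mice each spread over about a factor of 2. Means were 8.76 ± 0.746 CPM in CTL (SD, n = 5), 72.0 ± 25.4 in CPZ (n = 4) and 21.3 ± 6.80 in RCV (n = 4). Trem2 rose by 3.04 ± 0.26 in CPZ against CTL on the log2 scale (edgeR adjusted p = 7.5e-06).

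Tyrobp, the adaptor, was at 7.48, 10.5, 7.07, 7.19 and 6.05 CPM in CTL mice. It reached 131, 90.7, 51.2 and 65.7 CPM in CPZ mice and was 18.6, 21.5, 14.2 and 23.4 CPM in RCV mice. Again no group overlapped another, and CPZ mouse 1 was the highest of all libraries. The rise of Tyrobp was the largest of the 7, 3.46 ± 0.28 on the log2 scale (edgeR adjusted p = 4.8e-06). Per transcript length the adaptor was the most abundant member in each group, at 36.8 ± 7.64 transcripts per 1000000 (TPM) in CTL, 412 ± 170 in CPZ and 95.2 ± 20.7 in RCV. Trem2 came next with 15.6 ± 0.461, 134 ± 50.9 and 37.9 ± 13.3 TPM, and its values did not overlap those of Tyrobp in any group.

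Hcst, the second adaptor, was hardly detected. Its estimated counts were 1, 2, 0, 0 and 1 in CTL, 3, 8, 4 and 8 in CPZ and 0, 1, 0 and 0 in RCV. Every CPZ library held more counts than any other library, yet the filter on low counts kept Hcst out of the test. Summed over libraries it was at 0.123 CPM in CTL (4 counts, exact 95% Poisson interval 0.0334 to 0.314), 0.770 CPM in CPZ (23 counts, 0.488 to 1.16) and 0.0432 CPM in RCV (1 count, 0.00109 to 0.241). The ratio of CPZ to CTL was 6.28 (2.15 to 25.0) and that of CPZ to RCV 17.8 (2.90 to 735), while RCV to CTL was 0.352 (0.00715 to 3.56), with intervals that cover counting error only. With no filter edgeR called Hcst higher in CPZ against CTL (adjusted p = 0.0460) and against RCV (adjusted p = 0.0248). HCST is also the signalling chain of receptors on natural killer and T cells. Their 12 markers summed to 44 to 107 counts in CPZ, 20 to 150 in CTL and 5 to 106 in RCV, of which Cd4 gave up to 148, and their part in the Hcst counts was not tested.

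Among the kinase and effectors, Syk was 3.40, 4.80, 4.76, 4.74 and 3.30 CPM in CTL, 13.4, 14.2, 9.02 and 9.55 in CPZ and 6.45, 5.18, 4.81 and 5.42 in RCV. The RCV libraries of Syk began where the CTL libraries ended, and its rise in CPZ, 1.45 ± 0.18 on the log2 scale, was the smallest of the 7 (edgeR adjusted p = 3.9e-05). Plcg2, which turns a membrane lipid into calcium and diacylglycerol signals, was 4.76, 6.00, 3.53, 4.89 and 5.50 CPM in CTL, 20.5, 18.6, 9.57 and 16.4 in CPZ and 6.01, 8.75, 8.08 and 9.32 in RCV. CPZ mouse 3 fell near the highest RCV mice. Plcg2 rose by 1.72 ± 0.21 (edgeR adjusted p = 3.1e-05). Vav1, an exchange factor that acts on the actin skeleton, was 4.21, 4.50, 2.15, 3.21 and 3.48 CPM in CTL, 23.6, 24.1, 10.3 and 14.7 in CPZ and 6.89, 8.26, 4.62 and 7.59 in RCV. The rise of Vav1 was 2.36 ± 0.27 (edgeR adjusted p = 2.4e-05), and RCV mouse 3 lay just above the highest control.

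The genes of both phosphatases that oppose the signal were also higher in CPZ than in CTL. Inpp5d, which removes a phosphate from the PI3-kinase product, was 12.2, 16.4, 11.7, 12.7 and 12.8 CPM in CTL, 62.5, 58.5, 28.3 and 38.5 in CPZ and 22.3, 19.8, 19.2 and 21.9 in RCV. Its rise was 1.83 ± 0.20 (edgeR adjusted p = 3.0e-05). Ptpn6, a tyrosine phosphatase recruited by inhibitory receptors, was 2.17, 4.65, 2.00, 3.52 and 3.12 CPM in CTL, 28.5, 28.3, 13.04 and 18.7 in CPZ and 5.57, 5.18, 6.74 and 6.72 in RCV. With 2.84 ± 0.26 it had the third largest rise of the 7 (edgeR adjusted p = 3.2e-06). On TPM 4 of the 7 tested members overlapped between RCV and CTL. Ptpn6 spanned 6.30 to 8.79 TPM in RCV and 2.49 to 8.88 in CTL, and Inpp5d 12.2 to 19.7 in RCV and 5.58 to 15.0 in CTL. Vav1 spanned 3.24 to 6.16 TPM in RCV and 1.70 to 3.45 in CTL, and Plcg2 2.87 to 4.51 in RCV and 1.70 to 2.90 in CTL.

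**Figure D1:**
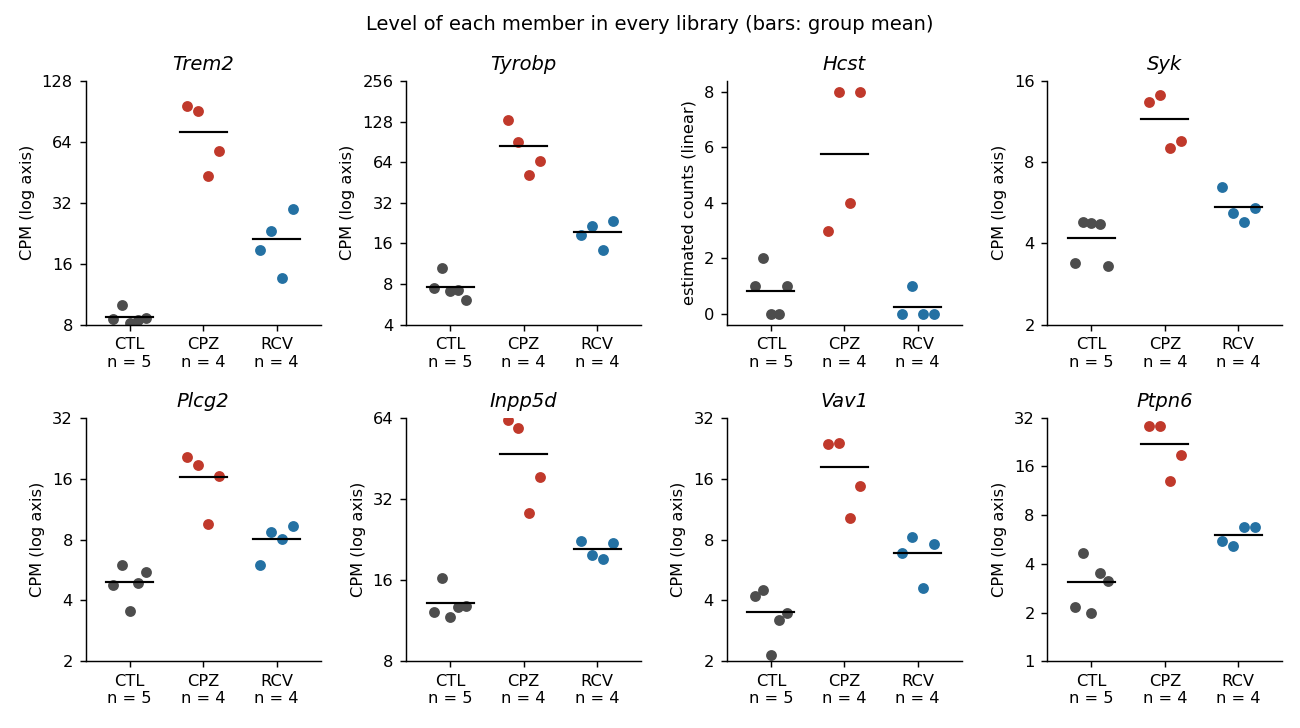
Level of each member in every library, as CPM on log axes with base 2, or as estimated counts on a linear axis for Hcst; points are libraries of CTL (n = 5), CPZ (n = 4) and RCV (n = 4), and bars are group means. For Trem2 the CPZ points lie between 43.6 and 96.1 CPM, above all RCV points (13.7 to 29.7) and all CTL points (8.15 to 10.1).

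Below the 2 leading genes the order of levels per transcript length was loose. In CTL the TPM means ran from Inpp5d (9.86) through Ptpn6 (5.97), Vav1 (2.61), Plcg2 (2.40) and Syk (1.84) to Hcst (1.13), and each overlapped the next; Inpp5d also reached the lowest Trem2 value. In CPZ, Ptpn6 (28.4 TPM) stood beside Inpp5d (26.4), followed by Vav1 (13.5), Plcg2 (7.73), Hcst (5.81) and Syk (5.03), again with overlap at every step. In RCV Inpp5d (15.6 TPM), Ptpn6 (7.45) and Vav1 (4.95) did not overlap one another, Plcg2 (3.83) overlapped Vav1 and Syk (2.57), and Hcst (0.450) lay below them all. The libraries behind these levels were not alike: CPZ mouse 3 was the lowest CPZ library for 7 of 7 tested members and CTL mouse 2 the highest CTL library for 7 of 7. The general microglia markers were also lowest in CPZ mouse 3, with a mean log2-CPM of 5.93 against up to 7.04 in the other CPZ mice, and highest among controls in CTL mouse 2 (4.18). Leaving out any single library kept all 7 members called in CPZ against CTL, with edgeR adjusted p up to 0.000261.

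After 2 weeks back on control chow no member passed edgeR's test against CTL. Of the 7, 6 had an unadjusted edgeR p below 0.05, as did 929 of all 14985 tested genes. DESeq2 called Trem2 (adjusted p = 0.000135) and Tyrobp (adjusted p = 0.000109), against 0.834% of all genes called higher by DESeq2, and limma-voom called none. By edgeR 0.36% of all genes were higher and 0.0133% lower in this comparison. The log2 fold changes were 1.33 ± 0.31 for Tyrobp (edgeR adjusted p = 0.135) and 1.27 ± 0.29 for Trem2 (edgeR adjusted p = 0.122), or 2.52-fold and 2.42-fold. Ptpn6 and Vav1 were at 0.96, Plcg2 at 0.69, Inpp5d at 0.66 and Syk at 0.38, with a median of 0.96 for the 7. For Ptpn6 limma gave 0.37 on log2(TPM + 1) and 0.44 on log2(TPM + 0.1). On log2-CPM every RCV library was above every CTL library for 7 of 7 members, a pattern that held for 2.21% of all genes; on TPM it held for Trem2, Tyrobp and Syk. The call changed with the cuprizone libraries in the fit, which share the estimate of the spread. Without CPZ mouse 1 Tyrobp passed (edgeR adjusted p = 0.0150). Without CPZ mouse 3 both Trem2 (edgeR adjusted p = 0.0260) and Tyrobp (edgeR adjusted p = 0.0347) passed, and without CPZ mouse 2 or 4 no member did. The cause of these changes was not tested.

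Between the end of cuprizone feeding and recovery all 7 tested members differed. Levels in CPZ were above those in RCV by 2.12 ± 0.27 on the log2 scale for Tyrobp (edgeR adjusted p = 0.00067), 1.88 ± 0.26 for Ptpn6, 1.76 ± 0.26 for Trem2 and 1.40 ± 0.27 for Vav1. For Inpp5d, Syk and Plcg2 the differences were 1.17 ± 0.21, 1.07 ± 0.19 and 1.03 ± 0.22, the last with the highest adjusted p of the 7 (edgeR, 0.0079). The background was 5.13% of all genes higher and 1.88% lower in CPZ, and 8.26% of genes had every CPZ library above every RCV library, as all 7 members did. On log2(TPM + 1), limma no longer called Plcg2 (0.82) and Inpp5d (0.67). Red cell markers moved the other way: 2 of 5, Hbb-bt and Hba-a2, were lower in CPZ than in RCV, with summed levels of 147 to 219 CPM in CPZ and 221 to 316 in RCV, and their part in the result was not tested. The comparisons against CTL share the control mice, and both comparisons of CPZ share the cuprizone mice.

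**Figure D2:**
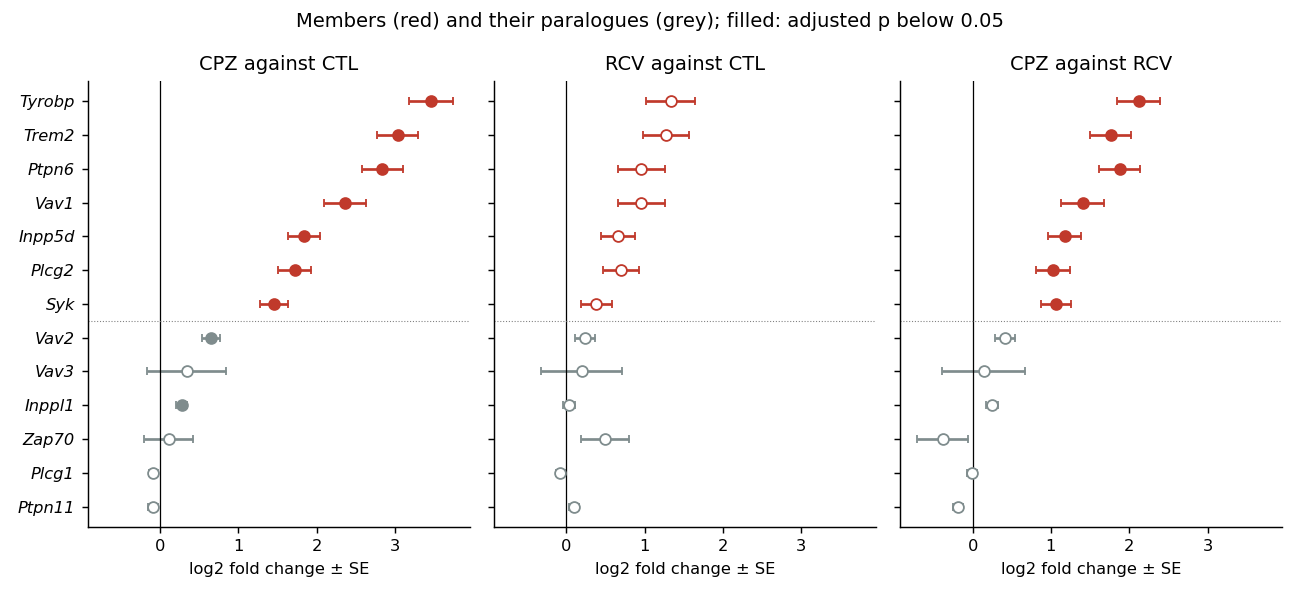
Log2 fold change ± SE of the 7 tested members (red) and of 6 paralogues (grey) in the 3 comparisons; filled points have an adjusted p below 0.05. All members are filled in CPZ against CTL, where they run from 1.45 (Syk) to 3.46 (Tyrobp), none is filled in RCV against CTL, and the paralogues stay between -0.09 and 0.65 in CPZ against CTL.

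A share was used to describe how much of the cuprizone change was present in recovery: the log2-CPM of an RCV mouse minus the CTL mean, divided by the CPZ mean minus the CTL mean. The shares were 0.414 ± 0.165 for Plcg2, 0.411 ± 0.160 for Trem2, 0.409 ± 0.158 for Vav1 and 0.391 ± 0.0924 for Tyrobp (SD over 4 RCV mice). Lower means were seen for Inpp5d (0.374 ± 0.0594), Ptpn6 (0.352 ± 0.0673) and Syk (0.265 ± 0.123). The general microglia markers stood at 0.347 ± 0.0782, and the values of every member overlapped theirs. On linear CPM the member shares were lower, from 0.153 for Tyrobp to 0.274 for Plcg2.

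**Figure D3:**
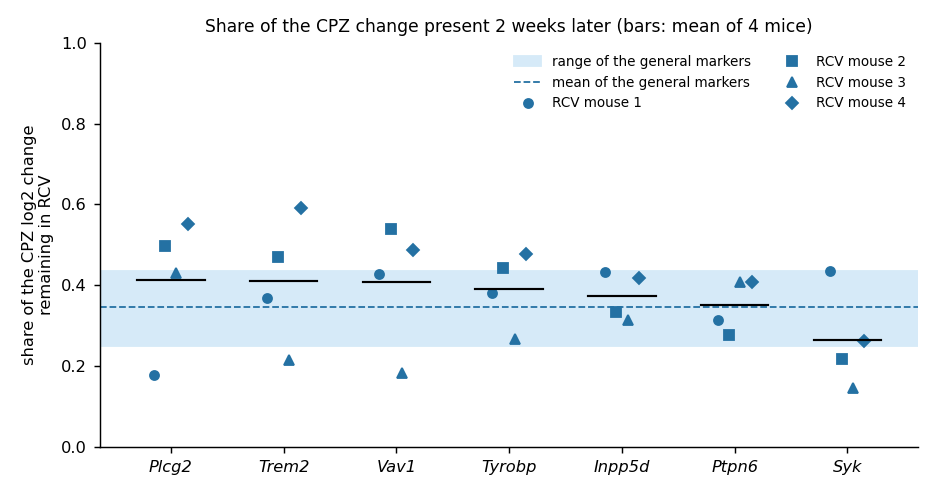
Share of the log2-CPM change of CPZ that was present in each of the 4 RCV mice, by member, with bars for the mean; the band and the dashed line give the range (up to 0.436) and mean (0.347) of 14 general microglia markers. The means of the members run from 0.265 (Syk) to 0.414 (Plcg2), and RCV mouse 3 is the lowest for Trem2, Vav1, Tyrobp, Inpp5d and Syk.

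Because the tissue is whole hemisphere, more microglia and more RNA per microglial cell cannot be told apart. The 14 general microglia and macrophage markers, which include Csf1r, C1qa, Aif1 and Spi1, rose in 14 of 14 cases in CPZ against CTL. Their summed level was 368 to 442 CPM in CTL, 1400 to 2973 in CPZ and 587 to 831 in RCV. The 12 homeostatic markers, such as P2ry12 and Tmem119, were summed at 209 to 251, 511 to 957 and 268 to 309 CPM and were called higher in 12 of 12 cases in CPZ against CTL. Members were therefore also set against each list, as the log2-CPM of the member minus the mean log2-CPM of the list in the same library.

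Against the general markers the ratios of Tyrobp and Trem2 were higher in CPZ than in CTL and those of Syk, Plcg2 and Inpp5d lower, by unadjusted tests. The log2 ratio of Tyrobp moved from -1.06 ± 0.196 in CTL (SD, n = 5) to -0.23 ± 0.165 in CPZ (n = 4), a difference of 0.84, and that of Trem2 from -0.86 ± 0.0560 to -0.45 ± 0.0392, a difference of 0.41. Syk differed by -1.13, Plcg2 by -0.89 and Inpp5d by -0.76. For these 5 genes no CPZ library overlapped a CTL library, and each had an exact two-sided permutation p of 0.0159, the smallest that 4 against 5 libraries allow. Adjusted over the 24 ratios tested, that p becomes 0.0544 and misses the threshold; on log2(TPM + 1) the adjusted values passed for these 5 genes and Vav1. Vav1 (-0.28, exact permutation p = 0.143) and Ptpn6 (0.20, exact permutation p = 0.444) overlapped between the groups. Hcst also passed unadjusted (-1.21), but its log2-CPM at 0 to 8 counts depends on the prior count of 2.

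The list used as the yardstick changed part of this picture. Against the homeostatic markers Tyrobp differed by 1.84, Trem2 by 1.42, Ptpn6 by 1.21 and Vav1 by 0.72 between CPZ and CTL, each with an exact permutation p of 0.0159. Inpp5d (0.24, exact permutation p = 0.0635), Plcg2 (0.12, exact permutation p = 0.413) and Syk (-0.12, exact permutation p = 0.556) overlapped, so the lower values of these 3 genes were seen against the general list alone. Adjusted over the 24 ratios to this list, the p of 0.0159 becomes 0.0635, and none passes.

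In recovery the mean ratio to the general markers lay between those of the other groups for Trem2, Tyrobp, Syk, Plcg2, Inpp5d and Ptpn6. The ratio of Tyrobp was 0.44 higher in RCV than in CTL (exact permutation p = 0.0317) and that of Trem2 0.33 higher (exact permutation p = 0.0476), while Syk was 0.50 lower (exact permutation p = 0.0317), all with some overlap between the groups. Against the homeostatic markers Tyrobp was 1.02 and Trem2 0.91 higher in RCV than in CTL (exact permutation p = 0.0159 each), and Ptpn6 was 0.66 (exact permutation p = 0.0317), Vav1 0.62 (exact permutation p = 0.0476) and Inpp5d 0.36 higher (exact permutation p = 0.0317). Syk then differed by 0.08 (exact permutation p = 0.698), and Inpp5d, which was 0.22 lower in RCV against the general markers, changed its direction with the list. Between CPZ and RCV, Tyrobp was 0.40 higher and Syk 0.62, Plcg2 0.69 and Inpp5d 0.55 lower in CPZ, each with an exact permutation p of 0.0286, the smallest that 4 against 4 allow. Trem2 differed by 0.08 between CPZ and RCV (exact permutation p = 0.657). None of these CPM ratios passed after adjustment over the 24 ratios to a list. The lowest adjusted value was 0.0544 for the general and 0.0635 for the homeostatic markers. On log2(TPM + 1) the ratio of Trem2 to the general markers in RCV against CTL had no unadjusted permutation p below 0.05. Those of Tyrobp, Hcst, Syk and Plcg2 did.

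**Figure D4:**
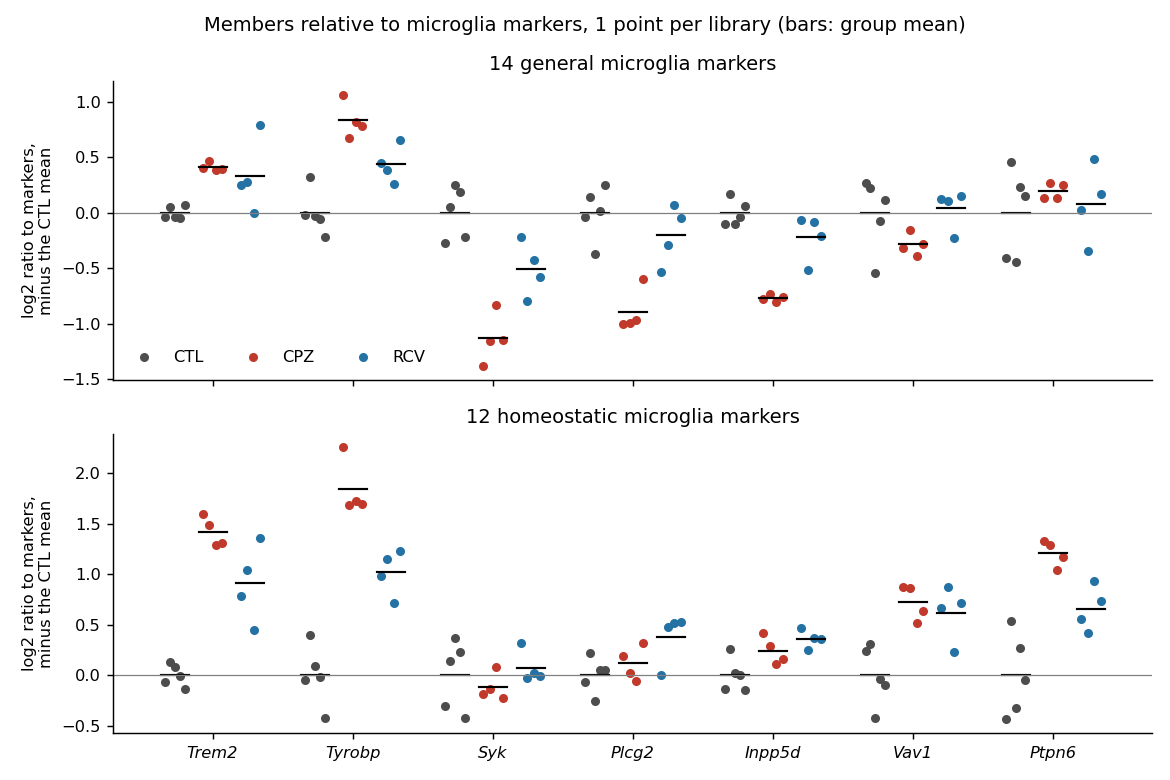
Log2 ratio of each tested member to the mean of 14 general (top) or 12 homeostatic (bottom) microglia markers in the same library, minus the CTL mean; points are libraries and bars are group means. Tyrobp and Trem2 in CPZ lie above the CTL points in both panels, whereas Syk, Plcg2 and Inpp5d lie below them in the top panel only.

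Markers of monocytes, neutrophils and B cells were scarce. Those of red cells were not, as the 5 of them summed to 181 to 244 CPM in CTL. Monocyte markers summed to 2 to 17 counts in CTL, 8 to 11 in CPZ and 5 to 20 in RCV, and none of the 6 passed the filter for testing. Neutrophil markers summed to 0 to 73, 0 to 5 and 5 to 83 counts. B cell markers summed to 1 to 6, 5 to 16 and 4 to 35 counts, and none of either list was tested. Of the neutrophil markers, Ly6g, Camp and Elane were at 0 in every CTL library. In CPZ Ly6g, Camp, Ltf, Elane and Retnlg were at 0 in every library, and in RCV only Elane was. Of 7 border macrophage markers 3 could be tested in CPZ against CTL and 1, Stab1, rose (1.69, edgeR adjusted p = 6.1e-06), while Mrc1 was at 0.71 (edgeR adjusted p above the threshold). Their summed levels were 16.9 to 26.2 CPM in CTL, 41.3 to 68.2 in CPZ and 20.9 to 28.4 in RCV, and their part in the member changes was not tested. VAV1 and PTPN6 are also used by other white blood cells.

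The genes most like Trem2 over the 13 libraries, by Pearson correlation of log2-CPM, were C1qb (r = 0.996), Mpeg1 (0.994), Itgb2 (0.994), C1qa (0.994) and C1qc (0.991). Tyrobp was most like C1qb (0.996), Csf1r (0.996), C1qc (0.994), Ly86 (0.994) and Nckap1l (0.994). C1qa, C1qb and C1qc encode the subunits of complement C1q, Mpeg1 a pore-forming protein of macrophages, and Itgb2 an integrin chain of white blood cells. Trem2 and Tyrobp had r = 0.992 with each other, and 0.893 after the group means were taken out. Correlations with the signalling partners were lower within groups, down to 0.567 between Trem2 and Syk and 0.648 between Tyrobp and Ptpn6. All of these are descriptions across 13 libraries that share the group differences.

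Among the closest paralogues of the partners, those called in CPZ against CTL rose less than any tested member. Vav2 rose by 0.65 ± 0.12 in CPZ against CTL (edgeR adjusted p = 0.0012) and Inppl1 by 0.27 ± 0.07 (edgeR adjusted p = 0.023), the latter lost without CTL mouse 5 or without CPZ mouse 1, 2 or 4 (edgeR adjusted p = 0.0522 to 0.0885). Not called were Vav3 (0.34 ± 0.50), Zap70 (0.11 ± 0.31), Plcg1 (-0.09 ± 0.06) and Ptpn11 (-0.09 ± 0.06), and none of the 6 was called in RCV against CTL or in CPZ against RCV. Zap70, the T cell relative of Syk, had 8 to 24 counts per library. Per transcript length Plcg1 exceeded Plcg2 in every group, with 57.6 ± 1.57 against 2.40 ± 0.465 TPM in CTL and 56.3 ± 5.91 against 7.73 ± 2.28 in CPZ. Ptpn11 likewise exceeded Ptpn6, at 75.3 ± 3.60 against 5.97 ± 2.77 TPM in CTL and 69.4 ± 3.64 against 28.4 ± 3.88 in CPZ.

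A further 106 genes of the pathway were listed by role, of which 80 could be tested. In CPZ against CTL 47 of the 80 rose and 0 fell (7.66% and 2.5% of all genes), with a median of 0.62 on the log2 scale. DESeq2 and limma-voom also called 47, and 33 of the 80 were not called by edgeR. The lists were chosen with earlier results of these data known, so the share over all genes is no neutral yardstick for these counts. Some tested genes had few counts in CTL, such as Cd22 (0 to 2 per library) and Treml2 (1 to 5), and could hardly be called lower in CPZ. With at least 10 counts in every library 29 genes were called. In RCV against CTL 4 were higher and 0 lower (0.36% and 0.0133% of all genes, median 0.23), and DESeq2 called 10. In CPZ against RCV 36 were higher in CPZ and 0 lower (5.13% and 1.88% of all genes, median 0.44). The 4 that stayed higher in recovery were Ptprc, Cd22, Lilrb4a and Clu.

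Of other TREM receptors only Treml2 could be tested, and it rose by 3.86 ± 0.40 (edgeR adjusted p = 6.7e-06). Treml2 had 1 to 5 counts per library in CTL, 23 to 59 in CPZ and 4 to 6 in RCV, so its fold rests on few control counts. Among ligands Lgals3, galectin-3, rose by 2.96, Apoe, the main brain lipoprotein, by 1.17 and Clu, clusterin, by 0.21 (edgeR adjusted p = 0.0004, 2.0e-05 and 0.0496). Apoe went from 985 ± 126 CPM in CTL to 2212 ± 459 in CPZ and 1434 ± 166 in RCV. Clu was the only ligand higher in RCV against CTL (0.31, edgeR adjusted p = 0.0479), and leaving out any of 11 libraries one at a time ended its call in CPZ (edgeR adjusted p up to 0.164) or any of 11 in RCV (up to 0.191). Both proteases that shed TREM2 rose, Adam17 by 0.66 and Adam10 by 0.29 (edgeR adjusted p = 0.0011 and 0.0042). In the MS4A group Ms4a6c rose by 3.11 and Ms4a6d by 2.90, and Ms4a6b was not called (0.59). The folds of Ms4a6c and Ms4a6d also rest on few control counts, 2 to 4 and 1 to 5 per CTL library.

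Receptors that share the adaptors gave 2 tested genes of 10, Clec5a (1.70) and Siglech (1.25), and both rose in CPZ against CTL; Siglech is also one of the homeostatic markers. Fcer1g, the Fc receptor chain that carries an ITAM like that of DAP12, rose by 3.39 ± 0.29 (edgeR adjusted p = 4.2e-06), from 4.14 ± 0.750 to 43.8 ± 18.7 CPM. Of 7 genes listed as Src family kinases and Csk 3 rose and 4 were not called. Fgr (4.22) and Lyn (2.09), both used by myeloid cells, were among those that rose. Fgr had 0 to 3 counts per CTL library, so its fold depends on the prior count. Next to Syk 7 of 10 rose, led by the scaffold Lat2 (2.46), the kinase Btk (2.44) and the scaffolds Lcp2 (2.03) and Blnk (1.53).

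PI3-kinase genes split, with 3 of 13 higher in CPZ. Pik3ap1, an adaptor of immune cells, rose by 2.44, Pik3cg, a catalytic subunit, by 2.23 and Pik3r5, its regulatory partner, by 1.08, the last lost without CPZ mouse 2 (edgeR adjusted p = 0.0656). The other 10, which include the broadly expressed Pik3ca, Pik3r1 and Akt1, were not called. Below PLCG2 4 of 10 rose, namely Card9 (1.86), Nfatc1 (1.02), Itpr2 (0.57) and Rasgrp3 (0.52), and the call of Rasgrp3 was lost in 8 of the 13 sets without 1 library (edgeR adjusted p up to 0.148). Of the small GTPases and actin regulators below VAV1 7 of 8 rose, with Dock2 (2.79), Rac2 (2.78), Was (2.25) and Nckap1l (2.21) ahead, while Rac1 was not called (0.08).

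Of 13 inhibitory receptors listed 8 could be tested and 7 rose in CPZ against CTL, among them Cd22 (5.82 ± 0.50), Lilrb4a (5.22 ± 0.45), Fcgr2b (3.85 ± 0.37) and Cd72 (2.02 ± 0.41), with edgeR adjusted p of 1.3e-06, 2.4e-06, 1.4e-05 and 0.0034. Sirpa was not called (0.21). Cd22, a sialic acid receptor, had 0 to 2 counts per library in CTL, 34 to 53 in CPZ and 5 to 14 in RCV, and Lilrb4a had 1 to 6, 78 to 159 and 16 to 40, so their folds depend on the prior count while their groups did not overlap. Both were still higher in RCV against CTL, by 4.11 ± 0.61 and 3.52 ± 0.53 (edgeR adjusted p = 0.0064 and 0.0085). Of the remaining phosphatases and adaptors Ptprc, which encodes CD45, rose by 3.05 ± 0.20 and was 1.57 ± 0.22 higher in RCV against CTL (edgeR adjusted p = 0.0051); limma-voom called neither Ptprc nor Lilrb4a there (adjusted p = 0.0744 and 0.169). Dok1 (1.24) and Sla (1.14) rose as well, the former lost without CPZ mouse 1 (edgeR adjusted p = 0.0587).

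**Figure D5:**
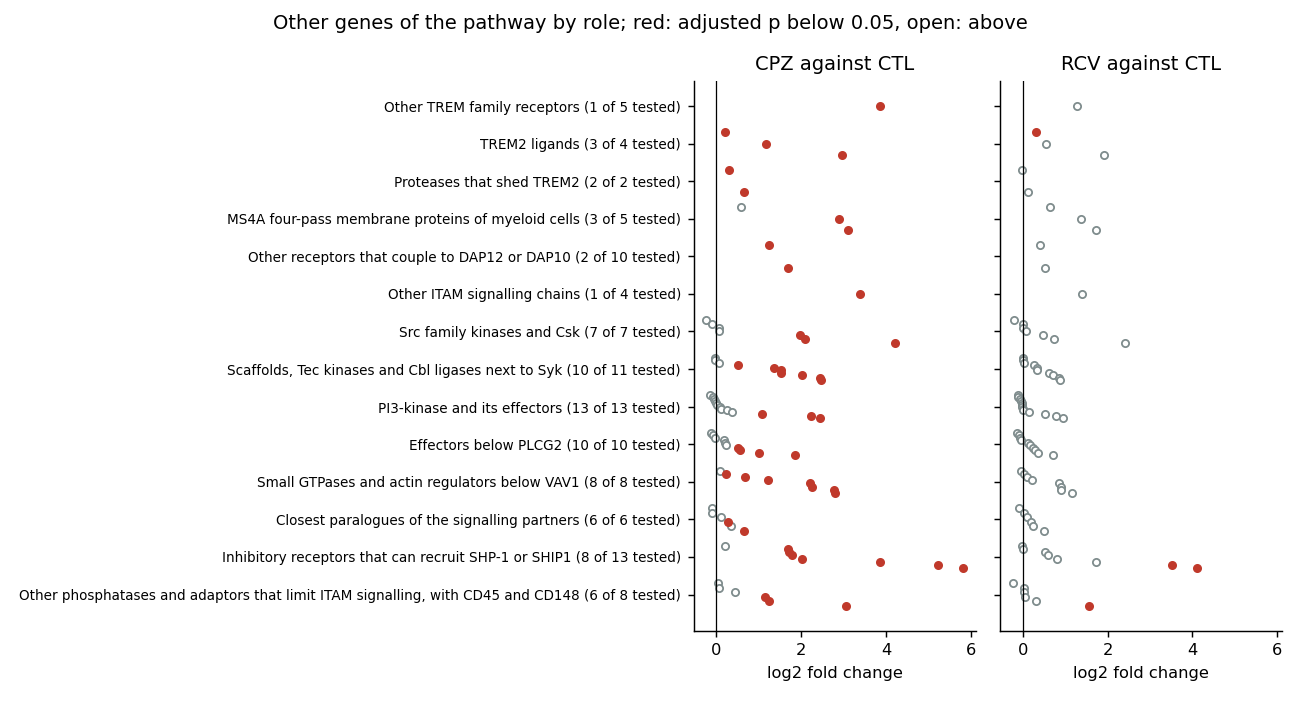
Log2 fold change of the tested genes of each role list in CPZ against CTL (left) and RCV against CTL (right); each point is a gene, filled red where the adjusted p is below 0.05. On the left 47 of 80 points are red and all of them lie above 0; on the right 4 are red, Ptprc, Cd22, Lilrb4a and Clu.

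The 26 pathway genes below the filter had at most 44 counts in any library. They were Trem1, Trem3, Treml1, Treml4, Apoa1, Ms4a4a, Ms4a7, Sirpb1a, Pilrb1, Pilrb2, Cd300lb, Cd300ld, Klrk1, Klra4, Klrd1, Cd247, Cd79a, Cd79b, Lat, Siglece, Cd300lf, Pilra, Pirb, Clec12a, Ptpn22 and Dok2. Klrk1, the receptor best known to pair with HCST, had 9 counts over all libraries, and Cd247, Cd79a and Cd79b, the ITAM chains of T and B cells, had 28, 12 and 39. Cd300lf, named after its values were seen, had 0 to 3 counts per library in CTL, 6 to 44 in CPZ and 1 to 8 in RCV, with no test.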

How the data were processed

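Bulk RNA-seq was made from 1 hemisphere per library with the Kapa mRNA HyperPrep Kit. The submitters' processing notes name STAR, RSEM and mm10. The authors deposited RSEM estimated counts per gene, not normalized, of which 4.45% were not whole numbers, together with TPM, which divides by transcript length and sums to 1000000 per library. The deposited gene lengths, another column, were not used for a test. The sources used here give neither the versions of these tools nor the strand setting of the counting.

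Estimated counts were rounded and 92 spike-in identifiers without counts were dropped. All 13 libraries entered 1 edgeR 4.0.16 fit (filterByExpr, TMM, robust quasi-likelihood F test), with Benjamini-Hochberg adjustment over 14985 genes and a threshold of 0.05. The SE is the size of the log2 fold change divided by the square root of F. CPM in the text is per 1000000 counts of the genes kept by the filter, scaled by TMM. Only the Hcst values summed over libraries, and their ratios, are per 1000000 of the library totals. The log2-CPM used TMM and a prior count of 2. Alternatives were DESeq2 1.42.0 size factors and its Wald test, limma-voom (limma 3.58.1), no filter, at least 10 counts in every library, only the 2 groups compared, a replicate block, limma on log2(TPM + 1) or log2(TPM + 0.1), and each library left out in turn. Ratios to markers were tested by exact two-sided permutation. The fit was checked on simulated counts. No 2 libraries of a group were near copies.

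Members and lists were chosen with earlier results of these data known. Named are all members and paralogues, up to 4 called genes per list with the largest change in CPZ against CTL, every pathway gene called in RCV against CTL, genes that could not be tested (some named genes are not reported here) and the 5 genes most like Trem2 and Tyrobp (mean log2-CPM of 1 or more). Positions are from GENCODE M21, to which 54349 of 55401 identifiers (98.1%) matched. Promoter windows are from RefSeq.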

Additional observations from a re-analysis of the deposited data

Results flagged for a closer look

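Among 79 groups of 4 or 5 values examined, 7 held a library far from the others of its group by Dixon's criterion, and chance alone marks about 1 in 20. CTL mouse 2 stood apart 3 times, with Trem2 at 10.1 CPM (the other CTL mice at 8.15 to 8.62), Inpp5d at 16.4 CPM (11.7 to 12.8) and Tyrobp at 50.0 TPM (30.3 to 35.2). In RCV mouse 2 Hcst was at 0.162 CPM and 1.80 TPM, from 1 count, where the other RCV mice had 0. The log2 ratio of Plcg2 to the general microglia markers was -2.26 in CPZ mouse 4, against -2.67 to -2.63 in the other CPZ mice. That of Vav1 was -2.36 in RCV mouse 3, against -2.03 to -1.99 in the other RCV mice. The cause of these values was not tested.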

How the results depend on the processing

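No log2 fold change of a member reversed under any of the alternatives. In CPZ against CTL all 161 alternative values of the 7 tested members stayed called; in CPZ against RCV 155 of 161 did, and the 6 others were Plcg2 and Inpp5d on TPM. In RCV against CTL members were called 2 times under DESeq2's Wald test, 3 with only the 2 groups compared, and 1 on log2(TPM + 1) or log2(TPM + 0.1), against 0 in the report, and 0 to 2 when 1 library was left out. Pathway genes called numbered 29 in CPZ against CTL with at least 10 counts in every library, against 47. In RCV against CTL they numbered 10 with DESeq2's Wald test, 7 with only the 2 groups compared, 2 on log2(TPM + 1) without a filter and 1 with limma-voom or with at least 10 counts in every library, against 4, and 3 to 8 when 1 library was left out. In CPZ against RCV they numbered 23 with at least 10 counts, 21 on log2(TPM + 1), 15 on log2(TPM + 0.1) and 18 on log2(TPM + 1) without a filter, against 36. Fewer genes are tested under the stricter minimum; for the other settings the cause was not tested. Ratios to general markers with an unadjusted p below 0.05 numbered 4 for RCV against CTL and 1 to 3 without 1 library; for CPZ against RCV they numbered 4, or 2 with homeostatic markers, and sets of 3 against 4 libraries were not run because their smallest p is 0.0571. On log2(TPM + 1) 6 ratios in CPZ against CTL and 2 in RCV against CTL passed adjustment over the 24 tests, where none did on CPM.

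Deviations of same-numbered libraries were weakly correlated (-0.199 to 0.136). This cannot decide whether the numbers pair the mice, because differently numbered libraries were not compared. With a replicate block the calls in CPZ against CTL were 7 members and 43 pathway genes, those of RCV against CTL 0 and 2, and those between CPZ and RCV 7 and 30, so the members matched the fit without it.

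Shares of the change remaining moved by more than their SD in 7 of 105 alternative values: 5 members on linear CPM, Inpp5d to 0.494 and Ptpn6 to 0.170 on log2(TPM + 1). Hcst, at 0 to 8 counts per library, is limited by depth.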

Other observations

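Counts and TPM gave different pictures of the phosphatases, and the number of counts per TPM unit shows where. This number, scaled by each library's median over 9810 well counted genes and set to 1 in CTL, follows the length of the transcripts that RSEM assigned. For Plcg2, which has 1 annotated transcript, it was 1.00 ± 0.00231 in CPZ and 1.01 ± 0.00218 in RCV (SD, n = 4 each). For Ptpn6, with 11 annotated transcripts, it was 1.00 ± 0.391 in CTL (n = 5), 1.29 ± 0.309 in CPZ and 1.40 ± 0.295 in RCV. For Inpp5d, also with 11, it was 1.00 ± 0.321 in CTL, 1.21 ± 0.160 in CPZ and 0.927 ± 0.166 in RCV. All groups overlapped for both genes, and a difference in transcript use between groups was not tested. Ptpn6 had only 13 to 31 counts per CTL library. Trem2, Tyrobp and Vav1 stayed between 0.945 and 1.02 in their group means. Syk, with 5 annotated transcripts, was at 1.00 ± 0.114 in CTL, 0.988 ± 0.0890 in CPZ and 0.931 ± 0.118 in RCV.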
